A study of Mus musculus with 18 samples.

Results

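The difference in ligation response between primary hepatocytes (MPH) and Kupffer-like cells was examined as an interaction: the change from sham operation (Sham) to bile duct ligation (BDL) in MPH minus the same change in Kupffer-like cells. Libraries were chosen by their cell type label, which took 12 of the 18 libraries of the series. A gene was tested when its FPKM (fragments per kilobase of gene model, scaled by library) was at least 1 in at least 3 of the 12 libraries, which took 14101 of 54532 genes. The 4 groups, MPH Sham, MPH BDL, Kupffer Sham and Kupffer BDL, held 3 libraries each, named here by their titles. All were RNA from cells isolated from mouse liver, and the surgery was the only treatment named. The labels used here give no strain, genotype, age, sex, time after ligation or isolation method, nor whether each library is a separate mouse. The p-values therefore cover the spread among these 12 libraries, which may be technical. Y-linked transcripts summed to 26.9 to 45.8 FPKM in some libraries of each group and to at most 0.0323 in the others. MPH_2140 and Kupffer_2140, MPH_2136 and Kupffer_2136, and MPH_1957 and Kupffer_1957 share a number and the surgery.

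Bile duct ligation blocks the flow of bile, and bile acids then accumulate in the liver. Hepatocytes take up bile acids and other organic ions from the blood, make bile acids from cholesterol, and export them into bile. Kupffer cells are the resident macrophages of the liver sinusoids, which clear particles and microbes from portal blood and secrete cytokines. A negative interaction means that the change in MPH was lower than that in Kupffer-like cells, whether or not either change was itself a fall.

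The marker transcripts were checked before the comparison. Serum albumin (Alb) measured 24262, 45229.5 and 80206 FPKM in MPH Sham, at 32219, 39277 and 75553 in MPH BDL, at 631, 437 and 342 in Kupffer Sham and at 613, 2112 and 1623 in Kupffer BDL. Clec4f, a lectin that marks Kupffer cells, stood at 1507, 1557 and 1812 FPKM in Kupffer Sham and at 1705, 1213 and 295 in Kupffer BDL. It also stood at 1098, 703 and 398 FPKM in MPH Sham and at 669, 587 and 218 in MPH BDL. The MPH label was therefore matched by very high hepatocyte transcripts, but the MPH libraries carried Kupffer cell transcripts as well. The summed FPKM of 12 Kupffer cell markers ran from 2241 to 10044 in MPH and from 3084 to 18957 in Kupffer-like cells, and these ranges overlapped. The summed FPKM of 16 hepatocyte markers was 699 to 1485 in Kupffer Sham and 1735 to 4533 in Kupffer BDL, which did not overlap, against 54619 to 130177 in MPH Sham and 58864 to 119343 in MPH BDL.

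Library Kupffer_2000 stood apart from the 2 other libraries of the Kupffer BDL group. Its summed Kupffer cell markers were 3084 FPKM against 18957 and 13435. Its summed B and plasma cell markers were 738 FPKM against 363 and 354, and its summed neutrophil markers were 2489.8 FPKM against 938 and 900.1. Counts that turn on this library are given with and without it. In RNA from pooled cells, fewer cells of a type and less RNA per cell cannot be told apart.

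**Figure D1:**
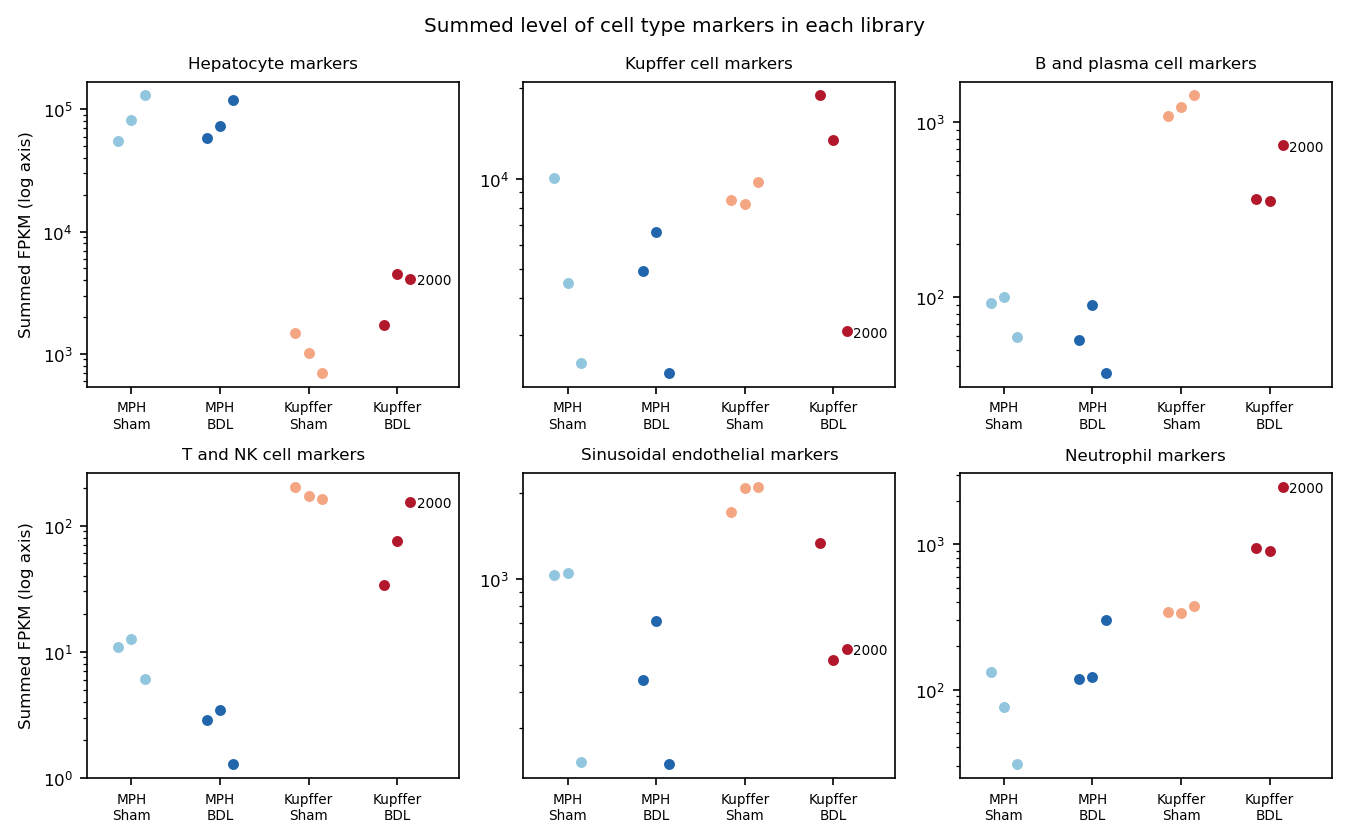
Summed FPKM (log axes) of the markers of 6 cell types in each of the 12 libraries, by group, 1 point per library, with Kupffer_2000 labelled. Hepatocyte markers are 1735 to 4533 FPKM in Kupffer BDL and 699 to 1485 in Kupffer Sham, and Kupffer_2000 has the lowest Kupffer cell marker sum of the 6 Kupffer libraries.

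Of the 14101 genes, 57 (0.404%) passed the test of the interaction (limma, Benjamini-Hochberg adjusted p under 0.05), 51 of them negative (0.362%) and 6 positive (0.0426%). An unadjusted p under 0.05 was reached by 2683 genes (19% of all), against which the counts at that p in the lists are to be read, and limma voom on recovered reads called 9 genes, none of them in a list below other than 4 mitochondrial genes (Atp5k, Uqcr11, Ndufa11 and Mrpl12). All 51 negative genes had their highest group mean in MPH Sham. In 38 of the 51 the MPH mean was lower and the Kupffer mean higher after ligation, and in 11 both were lower. In 51 of the 57 genes the change in MPH was larger in size than that in Kupffer-like cells. The groups did not overlap in MPH for 56 of the 57, against 28.9% of all genes, and in Kupffer-like cells for 35, against 31% of all genes. These shares rest on the values that gave the calls.

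The ligation response within each cell type was tested in its own 6 libraries. There 107 genes (0.759%) passed in MPH and 375 (2.66%) in Kupffer-like cells. Of the 57 genes called for the interaction, 23 also passed in MPH, 4 in Kupffer-like cells, none in both, and 30 in neither. The median interaction of all genes was -0.03 on the log2(FPKM + 1) scale, with medians of -0.04 in MPH and 0.04 in Kupffer-like cells. Scaling the libraries to a common sum of FPKM moved this median to 0.37, and scaling to recovered reads moved it to 0.18. Under the former 9 genes were called positive and 8 negative, and under the latter 4 and 8, so that the split between directions depends on the scaling. Relative values below are against the median of -0.03.

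Deviations from the group means correlated at 0.230 to 0.337 between libraries with the same number. Between MPH and Kupffer libraries of different numbers they correlated at -0.338 to 0.264, so the ranges overlapped. With the number as a block (limma with duplicateCorrelation) 469 genes passed (3.33%), 387 negative and 82 positive, which included all 57. The 3 shared numbers held no replicate of BDL, so calls from within-number differences are not given. These differences gave all 57 genes the same sign as the main fit. They reuse libraries that gave the 57 calls, so the shared sign is not independent of those calls. Without Kupffer_2000, 386 genes were called, 199 negative and 187 positive, and all 57 were among them.

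**Figure D2:**
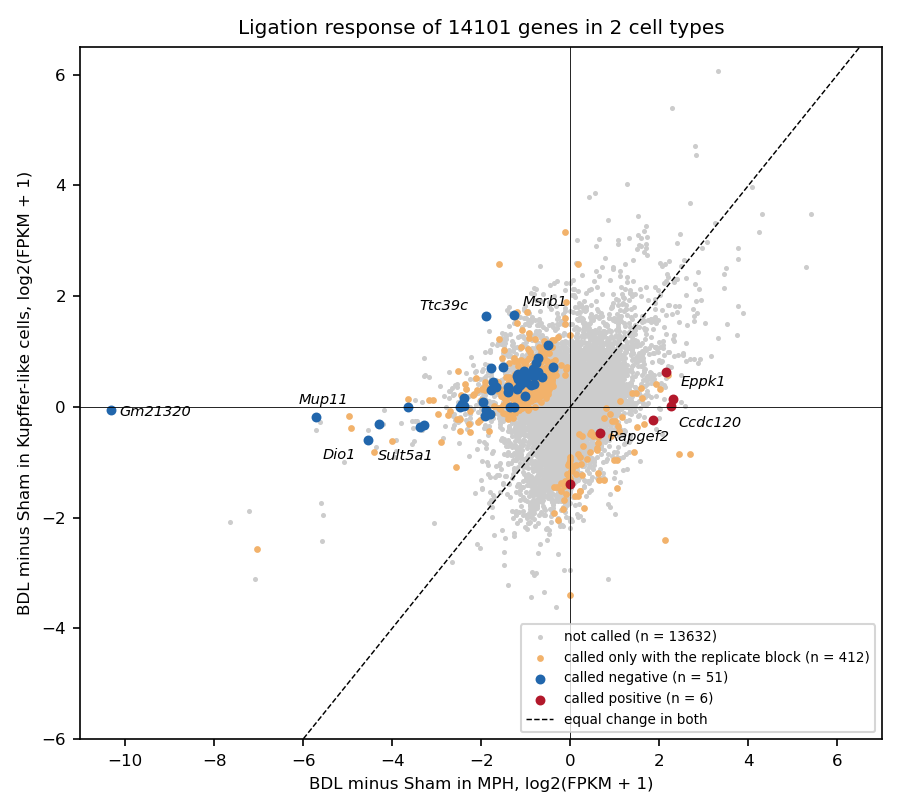
Change from Sham to BDL in MPH (x axis) against that in Kupffer-like cells (y axis), both as differences of mean log2(FPKM + 1), for 14101 genes, with the dashed line marking equal change and orange points for genes called only with the replicate block. The 51 genes called negative lie left of and above the line, many with an MPH change below 0 and a Kupffer change above 0, and the 6 called positive lie right of or below it.

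Dio1 (chromosome 4, 107291465 to 107307169, GRCm38), the type 1 deiodinase that converts thyroid hormone, stood at 98.2, 137 and 177 FPKM in MPH Sham and at 3.4, 3.48 and 8.8 in MPH BDL. In Kupffer-like cells it stood at 2.01, 1.28 and 0.502 FPKM in Sham and at 0.296, 0.239 and 0.867 in BDL. Dio1 thus fell in every MPH library, with no overlap, while the Kupffer groups overlapped at a low level. The interaction was -3.95 ± 0.51 (SE) on the log2(FPKM + 1) scale (limma adjusted p = 0.019), from a change of -4.54 in MPH and -0.59 in Kupffer-like cells.

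Slc22a7, a carrier that brings organic anions into hepatocytes, was called. Slc22a7 (chromosome 17, 46432183 to 46438457) stood at 16.8, 12.2 and 45.2 FPKM in MPH Sham and at 1.18, 0.576 and 0.621 in MPH BDL, and at no more than 0.407 FPKM in any Kupffer library. Every MPH BDL library was below every MPH Sham library. The interaction was -3.64 ± 0.54 (limma adjusted p = 0.03), from a change of -3.64 in MPH and -0.005 in Kupffer-like cells. Slc22a7 was not called with a pseudocount of 0.1, under which 10 of the 57 genes kept their call. Of the 8 uptake carriers tested, 2 were called negative, Slc22a7 among them, against 0.362% of all genes, and none positive. In 7 the interaction was below 0, and the median was -1.73. Slc10a1, the main bile acid carrier of the hepatocyte, was not called: it stood at 114, 231 and 365 FPKM in MPH Sham and 127, 143 and 188 in MPH BDL, which overlap, with an interaction of -1.13 ± 0.74 (limma adjusted p = 0.44).

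Among 11 exporters of bile acids and lipids, 1 was called negative, against 0.362% of all genes, and none positive. The list median was 0.24 (-1.03 with limma voom on recovered reads and -0.46 with a pseudocount of 0.1). Abcg8 (chromosome 17, 84676302 to 84700333), which forms a sterol exporter with Abcg5, stood at 13.5, 18.6 and 19.8 FPKM in MPH Sham and fell to 6.76, 5.92 and 5.05 in MPH BDL. In Kupffer-like cells it stood at 0.199, 0.191 and 0.132 FPKM in Sham and at 0.326, 0.591 and 0.627 in BDL. Its interaction was -1.76 ± 0.24 (limma adjusted p = 0.023). Abcb11, the bile salt export pump, gave -1.68 ± 0.88 (limma adjusted p = 0.33), and its MPH groups overlapped at 59.8, 133 and 229 FPKM in Sham and 147, 49.1 and 25.8 in BDL.

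Sult5a1 (chromosome 8, 123140192 to 123158315), a member of the sulfotransferase family, had the smallest p of the called genes with an established name. It stood at 17.9, 16 and 18.4 FPKM in MPH Sham, at 0.739, 0.73 and 0.822 in MPH BDL, and at no more than 0.708 in any Kupffer library. The interaction was -3.02 ± 0.22 (limma adjusted p = 0.00024), and it was called with each of the 12 libraries left out in turn. Dct, dopachrome tautomerase, gave -2.41 ± 0.34 (limma adjusted p = 0.026). It stood at 5.78, 3.86 and 8.4 FPKM in MPH Sham, 0.649, 0.109 and 0.158 in MPH BDL, and at no more than 0.118 in any Kupffer library. Mup11, a major urinary protein, gave -5.54 ± 0.75 (limma adjusted p = 0.023) from 18, 143 and 61 FPKM in MPH Sham to 0.0505, 0.102 and 0 in MPH BDL. In Kupffer-like cells Mup11 was also lower after ligation, without overlap, at 0.283, 0.0976 and 0.0314 FPKM in Sham and 0 in every BDL library. At such low levels log2(FPKM + 1) understates a change. Mup11 belongs to a family of near-identical copies, so its share of the family's reads is uncertain.

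Msrb1 was called negative and also rose in the test of Kupffer-like cells alone. Msrb1 (chromosome 17, 24736642 to 24742778), a selenoprotein that repairs oxidised methionine, stood at 429.8, 312 and 467 FPKM in MPH Sham and at 182, 186 and 134 in MPH BDL. In Kupffer-like cells it rose from 92.5, 76.9 and 72.1 FPKM to 258, 312 and 208. The groups did not overlap in either cell type. The interaction was -2.92 ± 0.36 (limma adjusted p = 0.016), with -1.26 in MPH (limma adjusted p = 0.087 in its own 6 libraries) and 1.66 in Kupffer-like cells (limma adjusted p = 0.032).

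Ttc39c stood at 92.1, 42.3 and 148 FPKM in MPH Sham, 23, 23.4 and 19.5 in MPH BDL, 3.82, 1.92 and 1.71 in Kupffer Sham and 10.1, 12.2 and 6.79 in Kupffer BDL. Neither pair of groups overlapped. Its interaction was -3.52 ± 0.57 (limma adjusted p = 0.039), and its Kupffer change of 1.64 did not pass on its own (limma adjusted p = 0.0503). Khk, the enzyme of the first step of fructose use, stood at 340.4, 263 and 430.0 FPKM in MPH Sham and 108, 157 and 95.9 in MPH BDL, and at 30.3, 26.9 and 25 in Kupffer Sham and 39.5, 64 and 37.6 in Kupffer BDL. Hagh, which removes the glutathione adduct made from methylglyoxal, stood at 182, 171 and 256 FPKM in MPH Sham and 73.6, 60.9 and 42 in MPH BDL, and at 25.2, 20.1 and 14.3 in Kupffer Sham and 31.5, 24.3 and 43 in Kupffer BDL. The Kupffer groups were apart for Khk and overlapped for Hagh, and neither Kupffer change passed on its own (limma adjusted p = 0.15 for Khk and 0.22 for Hagh). The interactions of Khk and Hagh were -2.24 ± 0.39 (limma adjusted p = 0.048) and -2.48 ± 0.42 (limma adjusted p = 0.042).

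Endog, a mitochondrial nuclease, and Kyat1, an aminotransferase of kynurenine, lie 11054 bases apart on chromosome 2 (30171493 to 30174069 and 30185124 to 30205847). Endog stood at 110.3, 60.5 and 89.4 FPKM in MPH Sham and 28, 26.2 and 20.5 in MPH BDL, and at 11.9, 8.68 and 7.07 in Kupffer Sham and 12.4, 12.2 and 13.4 in Kupffer BDL. Kyat1 stood at 50.7, 42.2 and 89 FPKM in MPH Sham and fell to 11.1, 9.3 and 10.1 in MPH BDL, and stood at 4.7, 3.46 and 2.35 in Kupffer Sham and 3.59, 3.26 and 5.06 in Kupffer BDL. The Kupffer groups were apart for Endog and overlapped for Kyat1, and neither Kupffer change passed on its own (limma adjusted p = 0.23 for Endog and 0.73 for Kyat1). Their interactions were -2.18 ± 0.34 and -2.55 ± 0.40, each with a limma adjusted p of 0.037. The sum of hepatocyte markers, like Msrb1, Ttc39c, Khk and Endog, was higher in every Kupffer BDL library than in every Kupffer Sham library, and its part in the Kupffer values of these genes was not tested. With each of the 12 libraries left out in turn, Msrb1 was called in 10 fits, Dio1 in 9, Mup11 and Abcg8 in 5, Slc22a7, Dct, Kyat1 and Ccdc120 in 4, Hagh and Endog in 3, and Ttc39c, Khk and Rapgef2 in 2.

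**Figure D3:**
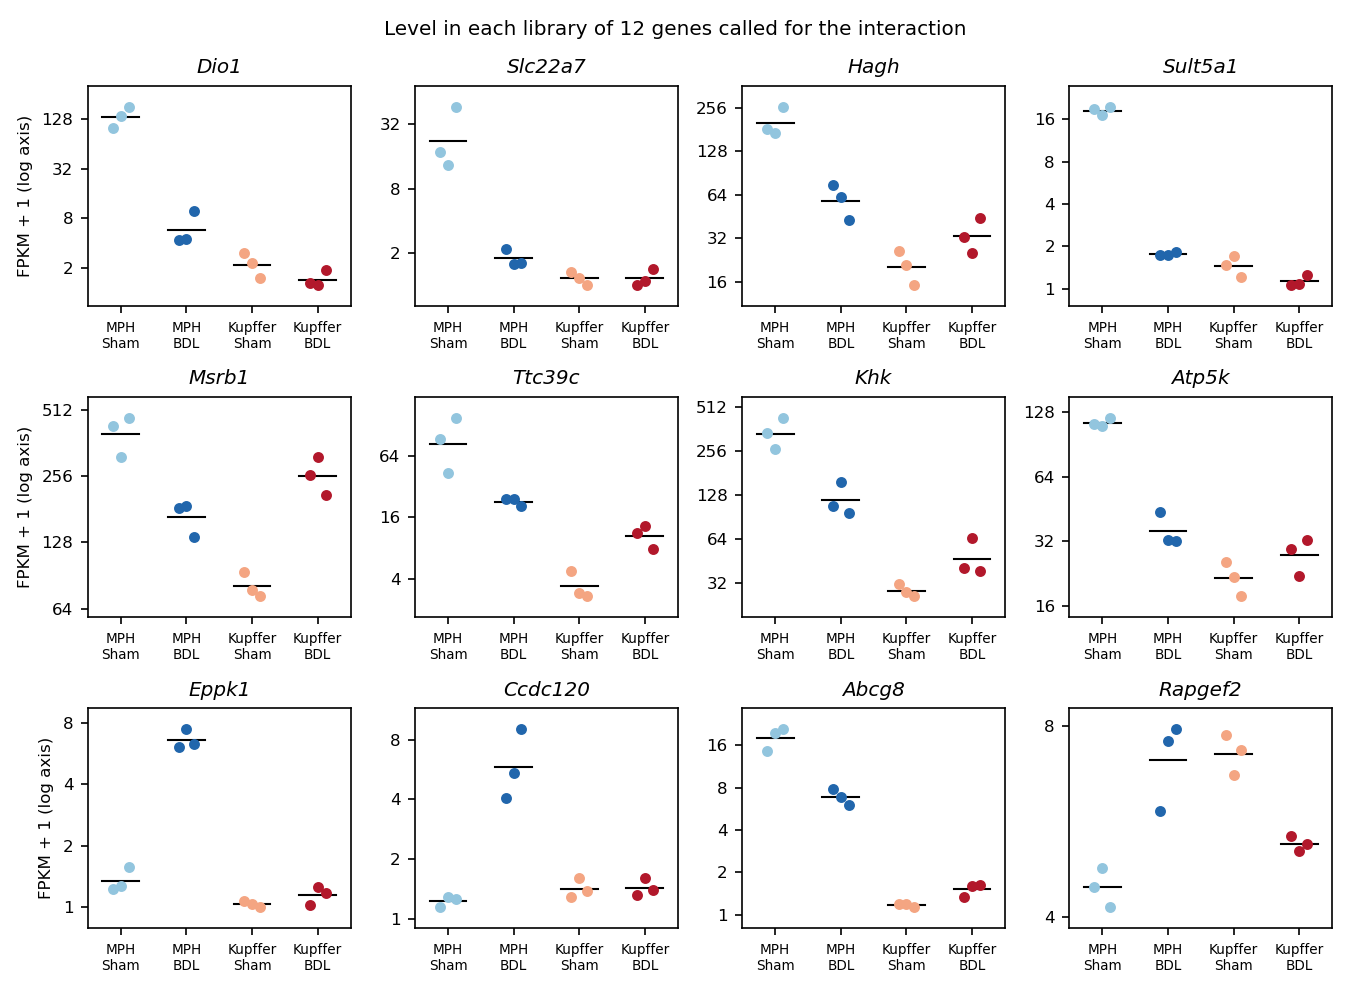
FPKM + 1 (log axes) of 12 called genes in each of the 12 libraries, by group, with 1 point per library and a bar at the mean of the log values. Dio1, Slc22a7 and Sult5a1 are low in 3 of the 4 groups and high in MPH Sham, Msrb1 and Ttc39c move in opposite directions in the 2 cell types, and Eppk1 and Ccdc120 are high in MPH BDL alone.

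The 6 positive genes were of low level. Eppk1 (chromosome 15, 76101481 to 76120195), epiplakin, which binds keratin filaments of epithelial cells, rose from 0.219, 0.263 and 0.563 FPKM in MPH Sham to 5.09, 6.45 and 5.34 in MPH BDL, and stood at no more than 0.256 in any Kupffer library. Its interaction was 2.15 ± 0.24 (limma adjusted p = 0.0088), and it was called with each library left out. Ccdc120 (chromosome X, 7731714 to 7750905) rose from 0.144, 0.285 and 0.25 FPKM in MPH Sham to 3.04, 4.45 and 8.01 in MPH BDL, and stood between 0.286 and 0.603 in Kupffer-like cells. Its interaction was 2.24 ± 0.36 (limma adjusted p = 0.039).

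Rapgef2, an exchange factor of Rap GTPases, differed in another way. It stood at 3.47, 3.78 and 3.15 FPKM in MPH Sham and 4.89, 6.58 and 6.92 in MPH BDL, but at 6.74, 5.7 and 6.33 in Kupffer Sham and 4.37, 4.1 and 4.22 in Kupffer BDL. The groups did not overlap in either cell type, and the interaction was 1.14 ± 0.21 (limma adjusted p = 0.048). The remaining 3, Syt12, Gm5340 and Gm22056, had group means under 5 FPKM. These 3, the mitochondrial genes, Stat2, Ifit1, Cd79a, Alb and Gm21320 were singled out after their values were seen.

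The largest negative value belonged to a predicted gene, Gm21320, which the annotation used here does not place. It was listed at 992, 695 and 2981 FPKM in MPH Sham and at 0 in all 3 MPH BDL libraries, and at no more than 0.0595 FPKM in any Kupffer library. Its interaction of -10.26 ± 0.57 depends on the pseudocount and is no measure of a fold. Of the 57 called genes, 17 had predicted or repeated names.

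A further run of negative genes encodes mitochondrial proteins. The nuclear genes of the respiratory chain complexes, the ATP synthase and the mitochondrial ribosome were grouped as a list of 169 symbols after the called genes had been seen, so that the counts are a description. Of 164 tested, 7 were called negative, against 0.362% of all genes, and none positive. With the replicate block 54 were negative, against 2.74% of all genes. None was called under the common sum, recovered reads or quantile normalization, 3 were with a pseudocount of 0.1, and 28 without Kupffer_2000. The interaction was below 0 in 161 of 164, against 52.4% of all genes, with a list median of -0.86 (-0.61 in MPH, 0.26 in Kupffer-like cells) against -0.03 over all genes. Under the common sum of FPKM the list median was -0.38 where that of all genes was 0.37.

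The called members were Atp5k and Atp5g1 of the ATP synthase, Ndufa11 and Ndufv3 of complex I, Uqcr11 of complex III, and Mrpl12 and Mrps18a of the mitochondrial ribosome. Atp5k fell from 112, 109.7 and 119 FPKM in MPH Sham to 43.1, 31.6 and 31.3 in MPH BDL, and stood at 24.6, 20.8 and 16.9 in Kupffer Sham and 28.6, 21.2 and 31.5 in Kupffer BDL. Uqcr11 stood at 317, 234 and 295 FPKM in MPH Sham, 118, 126 and 125 in MPH BDL, 58, 47.6 and 41.7 in Kupffer Sham and 77.5, 61.6 and 70.6 in Kupffer BDL. The MPH groups were apart for both, while the Kupffer groups overlapped for Atp5k and not for Uqcr11. The interactions were -2.03 ± 0.30 for Atp5k (limma adjusted p = 0.03) and -1.69 ± 0.29 for Uqcr11 (limma adjusted p = 0.042).

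Ndufa11 stood at 89, 69.6 and 88 FPKM in MPH Sham, 35.5, 44.2 and 37.2 in MPH BDL, 20.2, 19.9 and 17.2 in Kupffer Sham and 33.1, 26.5 and 28.4 in Kupffer BDL. Mrpl12 stood at 77.8, 61.2 and 75.3 FPKM in MPH Sham, 31.5, 27.1 and 34.2 in MPH BDL, 12.8, 11.9 and 11.3 in Kupffer Sham and 17.7, 15.7 and 23.2 in Kupffer BDL. Neither pair of groups overlapped for either gene. By family, the median interaction was -1.03 over 46 complex I genes, -1.16 over 4 of complex II, -1.11 over 8 of complex III, -0.99 over 13 of complex IV, -1.05 over 16 of the ATP synthase, -0.68 over 48 of the large ribosomal subunit and -0.70 over 29 of the small one. The 13 protein genes of the mitochondrial genome itself were all below 0 with a median of -1.29, and none was called (limma), 2 at an unadjusted p under 0.05 and none with the replicate block. Their share of all FPKM ran from 7.48% to 12.5% in MPH and from 3.72% to 17.1% in Kupffer-like cells, where the highest was Kupffer_1969.

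Promoters of the mitochondrial list were searched for the NRF1-type element (GCGCA, any 1 base, GCGC, on both strands) in the 250 bases before the start site, which 3 of the 7 called members held. It was found in 24 of the 138 members with a RefSeq promoter (17.4%), against 8.85% of 9825 tested genes and 4.23% of all 27025 genes of the table (GRCm38.p6). The stretches below run 5′ to 3′ on the gene's strand, with the element in capitals, or in Mrpl12 its reverse complement. They are from chr11:120484536-120484585 (+) for Mrpl12, chr5:108434420-108434469 (-) for Atp5k and chr17:56717682-56717731 (+) for Ndufa11.
Mrpl12: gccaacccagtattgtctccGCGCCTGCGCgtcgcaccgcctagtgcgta
Atp5k: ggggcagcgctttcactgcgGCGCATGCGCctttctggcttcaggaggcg
Ndufa11: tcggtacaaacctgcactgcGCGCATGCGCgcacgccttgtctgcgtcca
The search was made after the values were seen, and a match describes the letters only.

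The lists of hepatocyte metabolism lay below 0 with few or no called members. Bile acid synthesis genes had a median interaction of -2.02, 13 of 14 below 0, none called (limma) and 9 at an unadjusted p under 0.05. Cyp8b1, which makes the precursor of cholic acid, stood at 45.9, 111 and 265 FPKM in MPH Sham, 7.48, 3.85 and 0.191 in MPH BDL, and at no more than 2.05 in Kupffer-like cells. Its interaction was -4.54 ± 1.01 (limma adjusted p = 0.072, and 0.032 with the replicate block). Cyp7a1, the rate-limiting enzyme of bile acid synthesis, was at 3.91, 35.8 and 21.8 FPKM in MPH Sham and 63.8, 7.28 and 0 in MPH BDL, which overlap, with an interaction of -1.36 ± 1.70 (limma adjusted p = 0.72). Nr0b2, the nuclear repressor known as SHP that is a target of the bile acid receptor, gave -3.02 ± 0.86 (limma adjusted p = 0.11), from 64.8, 69.2 and 129 FPKM in MPH Sham to 25.8, 15.5 and 2.8 in MPH BDL.

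Cholesterol synthesis and uptake genes had a median of -1.26, with 22 of 23 below 0, none called (limma) and 14 at an unadjusted p under 0.05. With the replicate block 6 were negative (Tm7sf2, Mvk, Mvd, Nsdhl, Pmvk and Fdft1). The block called 2.74% of all genes negative, against which the negative block counts of these lists are to be read. Tm7sf2, a sterol reductase of the pathway, fell from 39.9, 35.3 and 60.1 FPKM in MPH Sham to 9.22, 11.4 and 5.41 in MPH BDL and stood between 0.875 and 1.92 in Kupffer-like cells. Its interaction was -1.96 ± 0.37 (limma adjusted p = 0.054, 0.025 with the replicate block, and 0.042 without Kupffer_2000). Fatty acid oxidation genes had a median of -1.13, none of 17 called, 5 at an unadjusted p under 0.05 and 2 with the block (Acaa2 and Cpt2). Lipogenesis genes had a median of -1.04, none of 15 called and 6 at an unadjusted p under 0.05, with Acly, the source of cytosolic acetyl-CoA, at -1.46 ± 0.43 (limma adjusted p = 0.12). Acaa2, the thiolase of the last step of mitochondrial oxidation, gave -2.08 ± 0.56 (limma adjusted p = 0.10, and 0.049 with the replicate block). Cytochrome P450 genes of drug metabolism had a median of -1.51, none of 15 called and 4 at an unadjusted p under 0.05, with Cyp2c50 at -2.44 ± 0.95 (limma adjusted p = 0.21). Nuclear receptors and bile acid sensors had a median of -0.44, none of 13 called and 5 at an unadjusted p under 0.05.

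Urea cycle and amino acid enzymes had a median of -2.13 (-1.64 without Kupffer_2000), with all 16 below 0, none called, 11 at an unadjusted p under 0.05 and 2 with the block (Asl and Nags). The list median was -0.80 in MPH and 1.30 in Kupffer-like cells. Asl, argininosuccinate lyase, stood at 212, 198 and 272 FPKM in MPH Sham and 199, 270.3 and 172 in MPH BDL, which overlap, but at 12.8, 12.5 and 5.2 in Kupffer Sham and 32.7, 31.1 and 53.2 in Kupffer BDL, which do not. Its interaction was -1.99 ± 0.48 (limma adjusted p = 0.081, and 0.049 with the replicate block). The hepatocyte markers themselves gave a median of -1.99, with all 16 below 0, none called and 9 at an unadjusted p under 0.05, from a median change of 0.12 in MPH and 1.85 in Kupffer-like cells. Apoa2, a protein of high density lipoprotein, stood at 152, 125 and 48.4 FPKM in Kupffer Sham and 207, 260.1 and 312 in Kupffer BDL, and its interaction was -2.47 ± 0.57 (limma adjusted p = 0.074, and 0.040 with the replicate block). The part of hepatocyte transcripts in the Kupffer values of these lists was not tested.

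Acute phase genes are secreted by the hepatocyte under cytokine control. Their median was -1.26 with 18 of 24 below 0, none called and 4 at an unadjusted p under 0.05, although the median change was above 0 in both cell types, 1.68 in MPH and 2.90 in Kupffer-like cells. Orm1 (orosomucoid) stood at 2344, 1293 and 2301 FPKM in MPH Sham, 3991, 4653 and 5279 in MPH BDL, 24.3, 14 and 7.59 in Kupffer Sham and 125, 699.6 and 159 in Kupffer BDL. Its interaction was -2.76 ± 0.86 (limma adjusted p = 0.13). Lcn2, an iron-sequestering lipocalin, stood at 95.9, 14.4 and 10 FPKM in MPH Sham and 981, 1462 and 859 in MPH BDL, and rose from 5.18, 5.04 and 6.33 to 39.8, 166 and 55.6 in Kupffer-like cells. Its interaction was 1.91 ± 1.03 (limma adjusted p = 0.35). Hamp, the iron hormone hepcidin, gave -1.92 ± 1.48 (limma adjusted p = 0.52).

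Car3, an abundant carbonic anhydrase of the hepatocyte, fell from 448, 358 and 1410.1 FPKM to 7.15, 2.31 and 0.065 in MPH. In Kupffer-like cells it was at 87.4, 17 and 4.07 FPKM in Sham and 0.936, 0.117 and 48.1 in BDL, where Kupffer_2000 was the high one. Its interaction of -5.56 ± 2.01 was not called (limma adjusted p = 0.18). Complement genes had a median of -0.998, none of 18 called, 5 at an unadjusted p under 0.05 and 2 with the block (Mbl2 and Mbl1). Mbl2, a mannose-binding lectin, gave -1.73 ± 0.43 (limma adjusted p = 0.086, and 0.040 with the replicate block). Glutathione and NRF2 target genes had a median of -0.76, none of 16 called and 5 at an unadjusted p under 0.05, with Gclc at -1.67 ± 0.53 (limma adjusted p = 0.14).

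**Figure D4:**
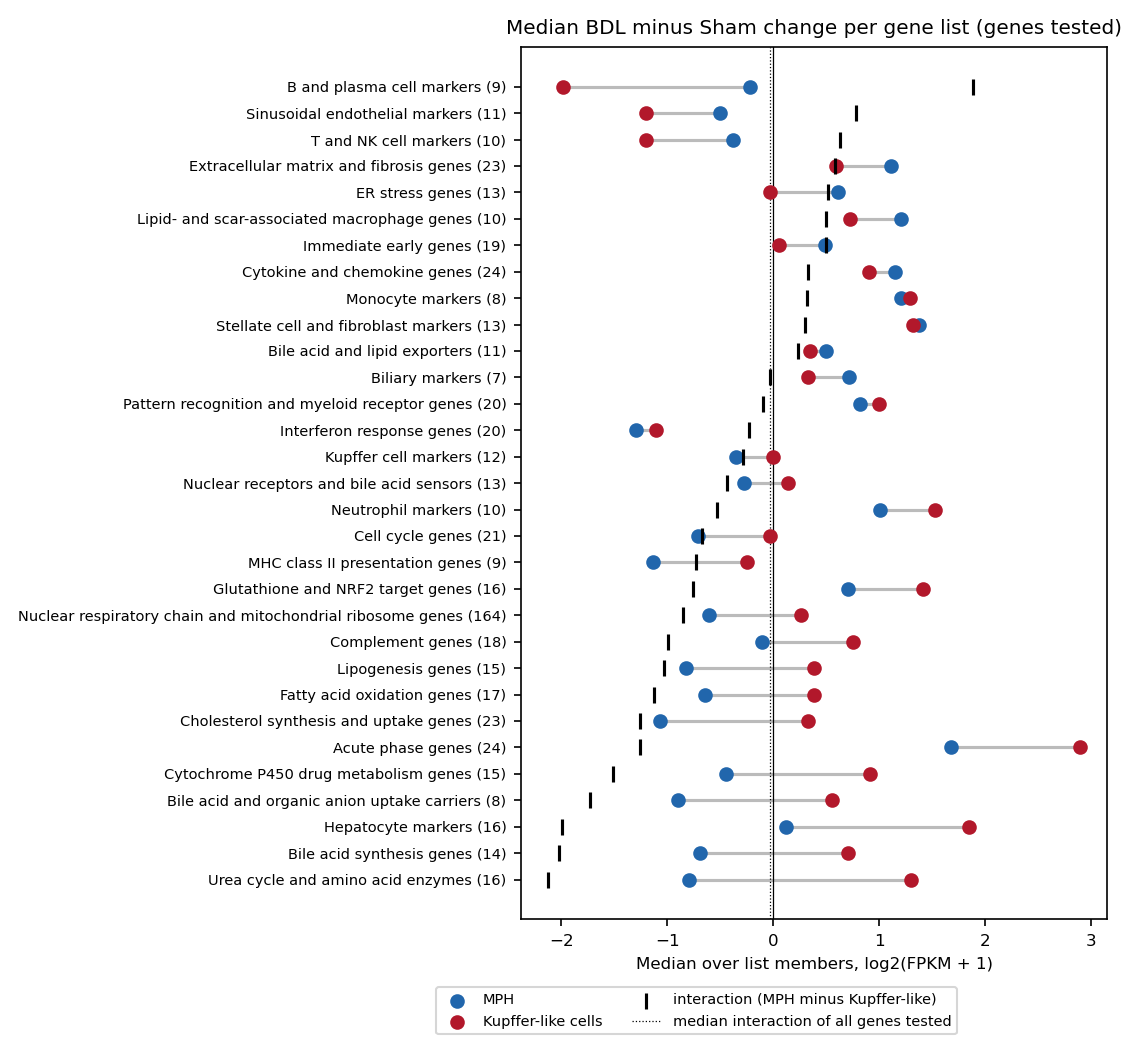
Median change from Sham to BDL over the tested members of each gene list, in MPH and in Kupffer-like cells, with the median interaction as a tick, all on the log2(FPKM + 1) scale and with the number of tested genes in brackets. Bile acid synthesis, cholesterol, lipogenesis and urea cycle lists lie below 0 in MPH and above 0 in Kupffer-like cells, interferon response genes lie below 0 in both (medians of -1.29 and -1.11), and B and plasma cell markers are lowest in Kupffer-like cells.

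Interferon response genes had a median change of -1.29 in MPH and -1.11 in Kupffer-like cells. In the cell types' own tests 1 of 20 fell in MPH (Stat2), against 0.411% of all genes, and 6 of 20 fell in Kupffer-like cells (Usp18, Ifit2, Ifit1, Cxcl10 and Xaf1 among them), against 1.69%, and none rose. The groups did not overlap for 11 of 20 in MPH, against 28.9% of all genes, and for 19 of 20 in Kupffer-like cells, against 31%. For the interaction none of 20 was called (limma), 1 was at an unadjusted p under 0.05, and the median was -0.23, which was 0.32 under the common sum of FPKM and 0.09 under recovered reads or quantile normalization. Stat2, a transducer of interferon signals, stood at 19.1, 17.4 and 19.7 FPKM in MPH Sham, 8.87, 7.51 and 7.72 in MPH BDL, 19.5, 20.4 and 23.7 in Kupffer Sham and 8.52, 12.2 and 12.3 in Kupffer BDL. Its interaction was -0.23 ± 0.23 (limma adjusted p = 0.64). Ifit1, an RNA-binding antiviral protein, stood at 9.71, 10.2 and 8.98 FPKM in MPH Sham, 4.29, 2.88 and 0.667 in MPH BDL, 12, 10.8 and 12 in Kupffer Sham and 3.73, 1.85 and 4.12 in Kupffer BDL, with an interaction of -0.09 ± 0.51 (limma adjusted p = 0.95), and 0.07 without Kupffer_2000. Neither gene's groups overlapped in either cell type.

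Promoters of 4 members are shown because the list's median change was below 0 in both cell types; of these members, Stat2 fell in MPH and Ifit1 in Kupffer-like cells by their own tests, and Isg15 and Oas1a passed in neither. The interferon-type element (GAAA, any 2 bases, GAAA, on both strands) lay in the 250 bases before the start site in 8 of the 16 members with a RefSeq promoter (50%), against 3.48% of tested genes and 3.46% of all genes of the table. The stretches, 5′ to 3′ on the gene's strand with the element or its reverse complement in capitals, are from chr19:34640784-34640833 (+) for Ifit1, chr4:156200855-156200904 (-) for Isg15, chr10:128270256-128270305 (+) for Stat2 and chr5:120907526-120907559 (-) for Oas1a (GRCm38.p6).
Ifit1: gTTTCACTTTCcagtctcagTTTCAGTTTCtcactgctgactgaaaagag
Isg15: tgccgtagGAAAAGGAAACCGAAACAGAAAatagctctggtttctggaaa
Stat2: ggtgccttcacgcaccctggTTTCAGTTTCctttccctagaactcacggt
Oas1a: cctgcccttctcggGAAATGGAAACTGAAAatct
In Isg15 and Oas1a the capitals hold overlapping copies. A match describes the letters and is not a measured binding site.

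Macrophage, inflammatory and matrix genes gave few differences. The MPH libraries also carried Kupffer cell transcripts, with summed Kupffer cell markers of 2241 to 10044 FPKM. Their part in the MPH values of macrophage, inflammatory and matrix genes was not tested. Kupffer cell markers had a median interaction of -0.29, none of 12 called (limma) and none at an unadjusted p under 0.05. That median was 0.22 under the common sum and 0.36 under quantile normalization, and it was -1.10 without Kupffer_2000. Monocyte markers had a median of 0.32 with none of 8 called and none at an unadjusted p under 0.05, and Vcan, a large proteoglycan, gave -0.87 ± 0.41 (limma adjusted p = 0.28). Pattern recognition and myeloid receptor genes had a median of -0.09, none of 20 called and none at an unadjusted p under 0.05, and their median was above 0 under 4 other settings, the highest 0.25 under the common sum. Marco, a scavenger receptor, stood at 378, 152 and 299.5 FPKM in Kupffer Sham and at 2461, 1304 and 369 in Kupffer BDL, with an interaction of -1.33 ± 1.37 (limma adjusted p = 0.64). Clec4f gave 0.32 ± 0.93 (limma adjusted p = 0.89), and -0.44 without Kupffer_2000. Lipid- and scar-associated macrophage genes had a median of 0.50, none of 10 called and 1 at an unadjusted p under 0.05. That gene was Cd9, a tetraspanin, which rose from 12.3, 13.8 and 14.8 FPKM to 50.2, 56.5 and 67.8 in MPH and stood at 40.6, 26.9 and 28.3 in Kupffer Sham and 40.1, 26.1 and 59.7 in Kupffer BDL. Its interaction was 1.68 ± 0.39 (limma adjusted p = 0.076, 0.034 with the replicate block, and 0.019 without Kupffer_2000).

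Trem2, the lipid receptor of such macrophages, gave 0.04 ± 0.48 (limma adjusted p = 0.98, and a value of -0.23 without Kupffer_2000), with changes of 1.43 in MPH and 1.39 in Kupffer-like cells. Spp1, osteopontin, gave 0.56 ± 0.53 (limma adjusted p = 0.61). Cytokine and chemokine genes had a median of 0.33 (0.09 without Kupffer_2000), none of 24 called and 2 at an unadjusted p under 0.05. Cxcl2, a neutrophil attractant, rose in both cell types, from 9.49, 17.7 and 5.65 to 91.4, 66.4 and 94.5 FPKM in MPH and from 180.4, 115 and 131 to 623, 606 and 408 in Kupffer-like cells, with an interaction of 1.01 ± 0.51 (limma adjusted p = 0.31). The interactions of Il6, Il1b, Tnf and Ccl2 were 2.08 ± 0.78, 0.46 ± 0.85, 0.37 ± 0.97 and 0.44 ± 0.74, with limma adjusted p of 0.20, 0.82, 0.88 and 0.80. Without Kupffer_2000 they were 1.53, 0.12, 0.01 and 0.06.

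Extracellular matrix and fibrosis genes had a median of 0.58, with 21 of 23 above 0, none called and 1 at an unadjusted p under 0.05. In the cell types' own tests 5 rose in MPH (Thbs1, Timp1, Mmp2 and Lox among them), against 0.347% of all genes, and 4 in Kupffer-like cells (Thbs1, Col6a2, Col6a1 and Lox), against 0.964%. Timp1, an inhibitor of matrix metalloproteinases, rose from 1.02, 1.78 and 0.912 FPKM to 28.3, 30.5 and 28.9 in MPH, and was at 4.8, 2.31 and 4.79 in Kupffer Sham and 74.6, 59.3 and 8.48 in Kupffer BDL, where Kupffer_2000 was the low one. Its interaction was 0.91 ± 0.88 (limma adjusted p = 0.62), and -0.04 without Kupffer_2000. Immediate early genes had a median of 0.50 (0.04 without Kupffer_2000) and ER stress genes one of 0.51, with none of 19 and none of 13 called and none at an unadjusted p under 0.05. Cell cycle genes had a median of -0.67 (-0.36 without Kupffer_2000 and -1.19 with voom), none of 21 called and 4 at an unadjusted p under 0.05. Fosl2, a subunit of AP-1, gave 0.82 ± 0.42 (limma adjusted p = 0.32), Trib3, a pseudokinase of the stress response, gave 1.205 ± 0.70 (limma adjusted p = 0.38), Aurka, a mitotic kinase, gave -1.05 ± 0.33 (limma adjusted p = 0.14), and Mki67, the proliferation marker, gave -0.81 ± 0.65 (limma adjusted p = 0.54).

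Markers of other cell types were compared as well, and none was called for the interaction in the main fit of the 12 libraries. B and plasma cell markers had the highest list median, 1.88, with all 9 above 0, none called (limma) and 4 at an unadjusted p under 0.05. Cd79a, a chain of the B cell receptor, stood at 61.3, 69.1 and 66.1 FPKM in Kupffer Sham, at 2.4, 0.553 and 42.4 in Kupffer BDL, where 42.4 was Kupffer_2000, and at no more than 2.45 in MPH. Its interaction was 2.57 ± 1.32 (limma adjusted p = 0.32), and 3.98 ± 0.55 without Kupffer_2000 (limma adjusted p = 0.010). Without that library 5 of the 9 B and plasma cell markers were called positive (Cd79a, Pou2af1, Ms4a1 and Mzb1 among them), against 187 of all 14101 genes.

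T and NK cell markers had a median of 0.63 (1.12 without Kupffer_2000, -0.30 with limma voom on recovered reads and -0.06 with a pseudocount of 0.1), with 9 of 10 above 0, none called, 2 at an unadjusted p under 0.05, and 4 called positive without Kupffer_2000 (Cd3g, Klrb1c, Cd3e and Ncr1). The summed FPKM of the 10 markers was 6.11 to 12.5 in MPH Sham and 1.27 to 3.45 in MPH BDL. It was 164 to 202 in Kupffer Sham and 34 to 153 in Kupffer BDL. The groups did not overlap for 7 of the 10 in MPH, against 28.9% of all genes, and for 6 in Kupffer-like cells, against 31%. Cd3g, a chain of the T cell receptor complex, stood at 8.68, 9.21 and 6.71 FPKM in Kupffer Sham and 1.59, 2.34 and 4.1 in Kupffer BDL. Cd3g was also lower in MPH, from 0.253, 0.315 and 0.212 to 0.171, 0.0987 and 0.0285 FPKM, without overlap in either cell type. Its interaction was 1.17 ± 0.32 (limma adjusted p = 0.11, 0.040 with the replicate block, and 0.019 without Kupffer_2000). Sinusoidal endothelial markers had a median of 0.78 with all 11 above 0, none called and none at an unadjusted p under 0.05. In the test of Kupffer-like cells alone 3 of the 11 fell (Kdr, Gpr182 and Dnase1l3), against 1.69% of all genes. Kdr, the main receptor of endothelial growth factor, fell from 117, 157 and 161 to 38.5, 23.6 and 38.1 FPKM there and stood at 55.7, 82.2 and 13 in MPH Sham and 24.9, 30.9 and 10.1 in MPH BDL, with an interaction of 1.16 ± 0.84 (limma adjusted p = 0.49). Neutrophil markers had a median of -0.54 (-0.19 without Kupffer_2000, -0.10 with a pseudocount of 0.1 and -0.27 with voom), none of 10 called and none at an unadjusted p under 0.05, with S100a8, a subunit of calprotectin, at -0.65 ± 0.72 (limma adjusted p = 0.67). Stellate cell and fibroblast markers had a median of 0.30 (-0.15 without Kupffer_2000), none of 13 called and none at an unadjusted p under 0.05, and biliary markers one of -0.04, none of 7 called and none at an unadjusted p under 0.05. Sox9, a transcription factor of biliary cells, gave 0.95 ± 0.50 (limma adjusted p = 0.33). MHC class II presentation genes had a median of -0.73, none of 9 called and 1 at an unadjusted p under 0.05, H2-Oa, at 1.49 ± 0.67 (limma adjusted p = 0.26, and 0.032 without Kupffer_2000).

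Leaving out Kupffer_2000 also moved other medians by over 1.5 times, from 0.50 to 0.29 for lipid- and scar-associated macrophage genes, from 0.32 to 0.52 for monocyte markers, from -0.09 to -0.38 for pattern recognition and myeloid receptor genes, from -0.04 to -0.16 for biliary markers and from -1.13 to -0.73 for fatty acid oxidation genes. Among single genes that were not called, it moved Marco to -2.09, Vcan to -0.52, Spp1 to 0.36, S100a8 to -0.22, Mki67 to -0.36 and Stat2 to -0.15.

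**Figure D5:**
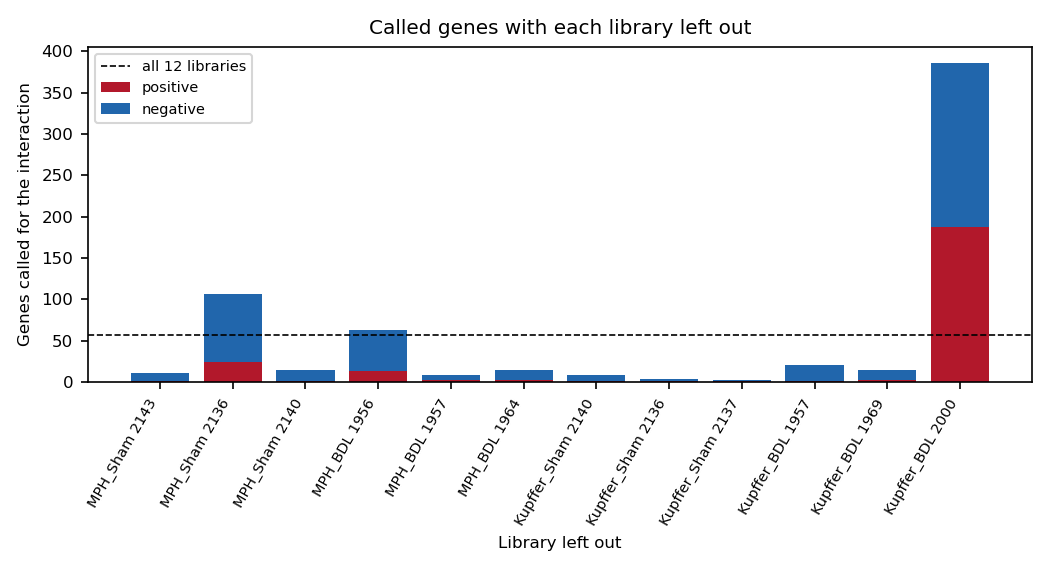
Number of genes called for the interaction (limma adjusted p under 0.05) with each of the 12 libraries left out, split into positive and negative calls, with the count of all 12 libraries (57) as a dashed line. Leaving out Kupffer_2000 gives 386 calls and leaving out Kupffer_2137 gives 3.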

How the data were processed

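The authors deposited 1 table of FPKM values for 54532 genes in 18 libraries, of which 12 were used for the main results. Per the submitters' processing notes, the tools were CASAVA 1.8, fastp, HISAT2 2.0.5, featureCounts 1.5.0-p3 and DESeq2 1.20.0, with GRCm38 (mm10). The annotation release and strandedness were not found in these notes. Read counts were recovered from the deposited FPKM values and GENCODE M21 exon lengths: between 15788620 and 17944725 reads per library in the 12, with 97.3% to 98.4% of values under 200 reads whole within 0.02. The library size that the values imply was a fraction of 0.517 to 0.741 of those reads in MPH libraries and of 0.934 to 1.22 in Kupffer libraries, so the values are not scaled to total reads. This depth bounds counting error only.

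The interaction was fitted to log2(FPKM + 1) with limma 3.58.1 in R 4.3.3 (4 group means, eBayes with trend and robust, 2-sided), over all 14101 genes, after a check on simulated data. A log2(FPKM + 1) change understates the change of low genes. Libraries of the same number were taken as paired in the replicate block and the within-number differences, and not in the main fit. The deviations from the group means correlated at 0.230, 0.337 and 0.305 for MPH_2136, MPH_2140 and MPH_1957 with their Kupffer partners, and the Y-linked transcripts of each pair matched. MPH_2143 and Kupffer_1957, of different numbers and surgery, correlated at 0.264, and MPH_2136 and Kupffer_2140 at -0.338. The replicate block used duplicateCorrelation (statmod 1.5.0, consensus correlation 0.368).

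The comparison, the gene lists and the rules were chosen with earlier results of these data known. Named were up to 12 called genes per direction with the largest interaction, a group mean of at least 5 FPKM and an established unique symbol. Up to 3 called members per list, or otherwise the member with the smallest p, and 18 genes of known function were added. No called gene with opposite changes passed in both cell types' own tests. Alternatives were other pseudocounts, filters, scalings, weights and models, voom on recovered reads, sex as a covariate and leaving out each library. Gene positions are from GENCODE M21 and promoters from RefSeq (GRCm38.p6). The biliary epithelial cell libraries entered only the model of 18 libraries and were not otherwise analysed here. Some genes that the rule takes are not reported here.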

Additional observations from a re-analysis of the deposited data

Results flagged for a closer look

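The ligation response differed between MPH and Kupffer-like cells, by the test of the interaction itself, in 57 genes (limma adjusted p under 0.05). Among the genes named by the rule, the interaction on the log2(FPKM + 1) scale was -5.54 for Mup11, -3.95 for Dio1, -3.64 for Slc22a7, -3.52 for Ttc39c, -3.02 for Sult5a1, -2.92 for Msrb1, -2.55 for Kyat1, -2.48 for Hagh, -2.41 for Dct, -2.24 for Khk, -2.18 for Endog and -1.76 for Abcg8. It was 2.24 for Ccdc120, 2.15 for Eppk1 and 1.14 for Rapgef2.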

How the results depend on the processing

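The number of genes called for the interaction (57, 6 positive and 51 negative) moved with most settings, while all of the 57 that were tested kept their sign under each of the 27 settings. Called in all, positive and negative were 11, 1 and 10 with a pseudocount of 0.1, 12, 3 and 9 with 0.01, 24, 7 and 17 with no filter, and 56, 1 and 55 with FPKM of at least 5. They were 17, 9 and 8 with a common sum of FPKM, 24, 2 and 22 with quantile normalization, 12, 4 and 8 scaled to recovered reads, 89, 8 and 81 without trend and robust, 9, 0 and 9 with voom, 716, 121 and 595 in 1 model of 18 libraries, and 36, 5 and 31 with sex as a covariate. With the replicate block they were 469, 82 and 387, and from within-number differences 819, 302 and 517; among the genes chosen by the rule, the block changed no call other than the 8 given in the report. Leaving out 1 library gave 3 to 386 calls, 1 to 187 positive and 2 to 199 negative; each omission but that of MPH_1956 (63) moved the count by over 1.5 times: MPH_2143 (11), MPH_2136 (106), MPH_2140 (14), MPH_1957 (8), MPH_1964 (15), Kupffer_2140 (8), Kupffer_2136 (4), Kupffer_2137 (3), Kupffer_1957 (20), Kupffer_1969 (14) and Kupffer_2000 (386). In MPH alone 107 calls became 1 with no filter, 65 with a common sum, 67 scaled to recovered reads, 1997 in 1 model of 18 libraries, 69 with sex as a covariate and 9 to 34 with 1 library left out. In Kupffer-like cells 375 became 214 and 212 with pseudocounts of 0.1 and 0.01, 0 with no filter, 608 with a common sum, 1178 in 1 model of 18 libraries, 1 with sex as a covariate and 0 to 2246 with 1 library left out (2246 without Kupffer_2000). The causes of these moves were not tested. Of 2924 values of 109 single genes, 2048 kept their side of the threshold, 839 no longer passed, 37 newly passed and none that passed changed sign.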

Other observations

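The chromosomes of the genes called for the interaction were looked at after their values were seen, and whether their spread is uneven was not tested. Of 56 called genes with a position, 9 (16.1%) lay on chromosome 17, which holds 4.88% of the tested genes with a position, and 6 (10.7%) lay on chromosome 15, which holds 3.87%. A further 8 (14.3%) lay on chromosome 4, which holds 6.31%, and 6 (10.7%) on chromosome 2, which holds 7.57%. Those on chromosome 17 included Msrb1, Hagh, Abcg8, Slc22a7, Ndufa11, Ndufv3, Mrps18a and 2410015M20Rik, and Msrb1 and Hagh lie 97364 bases apart. With the replicate block the shares were 6.88% on chromosome 17, 7.74% on chromosome 15, 6.45% on chromosome 4 and 6.88% on chromosome 2.

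Other called genes were also chosen after their values were seen. Echs1, which hydrates enoyl-CoA in fatty acid oxidation, stood at 40.7, 35.6 and 46.8 FPKM in MPH Sham, 30.1, 28.3 and 27.4 in MPH BDL, 7.07, 5.89 and 4.85 in Kupffer Sham and 14.9, 11.2 and 15.9 in Kupffer BDL, with no overlap in either cell type. Its interaction was -1.61 ± 0.26 (limma adjusted p = 0.039). Acad8, of valine breakdown, gave -1.27 ± 0.23, and Urod, of haem synthesis, gave -1.38 ± 0.24 (limma adjusted p = 0.048 for each). Pex16, of peroxisome membrane assembly, and Galt, of galactose use, gave -1.53 ± 0.25 and -1.52 ± 0.25 (limma adjusted p = 0.039 for each).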
